A study of Mus musculus with 6 samples.

Results

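E0771 cells that expressed the form of Malt1 called the Malt1 PD mutant in the labels (Malt1_PD) were compared with E0771 cells that carried a control vector (Vector), after both had met activated CD8 T cells. The members are 2 Malt1_PD and 2 Vector libraries out of 6 in the study, chosen by their labels, and the remaining 2 come from cells with wild-type Malt1 (Malt1_WT). All 28063 genes of the count table were considered, and 14675 had enough counts to be tested. E0771 is a mouse mammary carcinoma line. Every population was kept with T cells at 3 effectors per target for 12 hours, then washed, trypsinised and replated, and its RNA was taken 6 hours later. The labels do not spell out PD, and they give neither the promoter of the constructs nor whether a population is 1 clone. Separate cultures are not stated for the replicates, and p-values thus cover a spread between libraries that can be technical.

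MALT1 is a scaffold and a cysteine protease. With a CARD protein and BCL10 it forms filaments that recruit TRAF6 and turn on the IκB kinases and thereby NF-κB, and its protease cuts regulators such as A20, CYLD, RelB, Regnase-1 and the Roquins. Regnase-1 and the Roquins degrade mRNAs of inflammatory genes, Il6 and Ptgs2 among them. CD8 T cells that attack a tumour cell release interferon-γ, which acts on the tumour cell through its receptor and induces antigen presentation genes and Cd274.

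The libraries were of similar depth, from 15815122 to 17994769 counts over the Vector and Malt1_PD groups. A floor of 3 counts corresponds to 0.167 to 0.190 CPM (counts scaled to library size) there and covers counting error only. Among the Vector and Malt1_PD libraries, Vector replicate 1 stood apart in gene length. The 958 longest of 9573 well-expressed genes (10135 nt or more) took 9.66% of its counts, against 12.7% in Vector replicate 2 and 12.0% and 11.9% in Malt1_PD. In Malt1_WT the shares were 10.9% in replicate 1 and 12.4% in replicate 2. The difference between the paired libraries had an SD over genes of 0.30 log2 units in Vector and 0.14 in Malt1_PD. Malt1_PD replicate 1 had 0.623% of its counts on transcripts resembling ribosomal RNA, against 0.0839% to 0.211% in the other libraries. Some results below are therefore also given with a smooth trend on gene length removed from each library or without Vector replicate 1. Not every call that changed in these settings is listed.

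**Figure D1:**
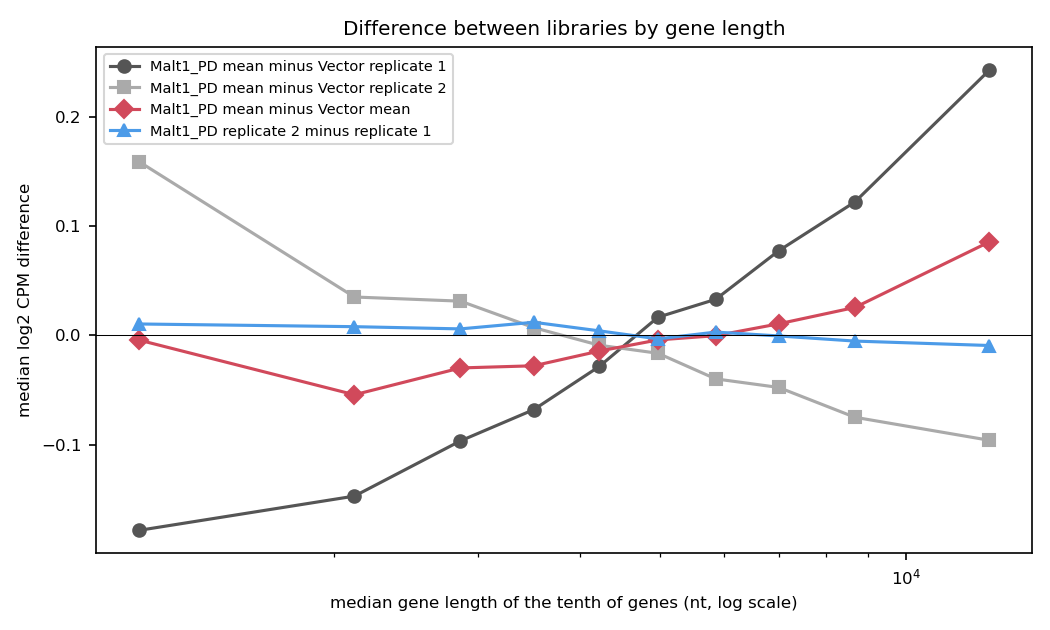
Median log2 CPM difference (vertical axis) in 10 equal classes of gene length (horizontal axis, log scale), for the Malt1_PD mean minus each Vector library, minus the Vector mean, and for Malt1_PD replicate 2 minus replicate 1. The lines against the single Vector libraries slope in opposite directions, and the line between the Malt1_PD libraries is flat.

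Several listed mesenchymal genes were abundant and most listed epithelial genes near 0 in every library of this cancer cell line. Vim, an intermediate filament of mesenchymal cells, had between 58651 and 82518 counts, and Twist1, a factor of the epithelial-to-mesenchymal transition, between 1754 and 2484. Snai2, of the same list, had only 22 to 88 counts. Among epithelial genes, Krt8 (keratin 8) and Epcam were counted at 1742 to 2204 and 110 to 134, whereas Cdh1 (E-cadherin) had at most 8 counts and Krt18 at most 12. Erbb2, also listed, had 624 to 1057 counts. T cell transcripts were few. The 14 of 18 listed T cell genes with a row summed to 47 and 46 counts in Vector and 40 and 40 in Malt1_PD, most of them from Lck (32, 35, 30 and 29 counts). Cd8a had 1 and 0 counts in Vector and 0 and 0 in Malt1_PD.

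Malt1 (ENSMUSG00000032688.8, chr18:65430938-65479067 in GRCm38, protein-coding, plus strand) was the one gene that rose in Malt1_PD cells at an adjusted p under 0.05. Its level was 23.8 CPM in Vector replicate 1, 31.3 CPM in Vector replicate 2, 106 CPM in Malt1_PD replicate 1 and 95.7 CPM in Malt1_PD replicate 2. The groups did not overlap, and their nearest libraries lay 1.61 log2 units apart. The means were 27.6 ± 5.31 CPM in Vector and 101 ± 6.92 CPM in Malt1_PD (SD, n = 2 each), 3.65-fold, or 1.87 ± 0.15 on the log2 scale (SE, edgeR quasi-likelihood test, adjusted p = 0.0265). Malt1 is a long gene of 11735 nt, and with the length trend removed the difference was 1.82 (edgeR adjusted p = 1.11e-05). Without Malt1_PD replicate 1 the difference was 1.79 (edgeR adjusted p = 0.598) and without replicate 2 it was 1.94 (edgeR adjusted p = 0.240), so the call ended when that group had 1 library, while adjusted p stayed under 0.05 in the other 10 of 12 alternatives. Counts per gene cover the endogenous mRNA and any reads from the construct together, and do not distinguish the mutant from the wild-type sequence.

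Cd274 encodes PD-L1, the ligand through which tumour cells restrain T cells by PD-1. Its counts came to 4.22 and 4.37 CPM in Vector, against 4.87 and 3.57 CPM in Malt1_PD. One Malt1_PD library lay above and the other below both Vector libraries. The difference was -0.03 ± 0.18 on the log2 scale (edgeR adjusted p = 0.977). In Malt1_WT the same mRNA (chr19:29367455-29388095) stood at 469 and 545 CPM. Malt1_PD was lower than Malt1_WT by a log2 difference of -6.91 ± 0.16 (edgeR adjusted p = 1.28e-06), which passed the threshold in all 11 alternatives run for that contrast.

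A gene was counted as fully separated when both Malt1_PD libraries lay above, or both below, both Vector libraries in log2 CPM. This held for 2696 genes higher (18.4% of 14675) and 2894 lower (19.7%), 38.1% together. With 2 libraries against 2, full separation is frequent also where the groups do not differ, so it does not by itself mark a difference. Most separations were narrow, with a median of 0.10 log2 units between the nearest libraries. A gap of at least 0.5 log2 units was found for 190 genes higher (1.29%) and 181 lower (1.23%). Of these 371 the mean level was under a log2 CPM of 2 in 156 higher and 134 lower genes. The median log2 difference over all genes tested was -0.00. By edgeR's test 1 gene passed an adjusted p of 0.05 as higher in Malt1_PD (0.00681%, Malt1) and 0 as lower (0%), with 548 (3.73%) and 716 (4.88%) at an unadjusted p under 0.05. DESeq2's Wald test called 20 higher and 23 lower.

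**Figure D2:**
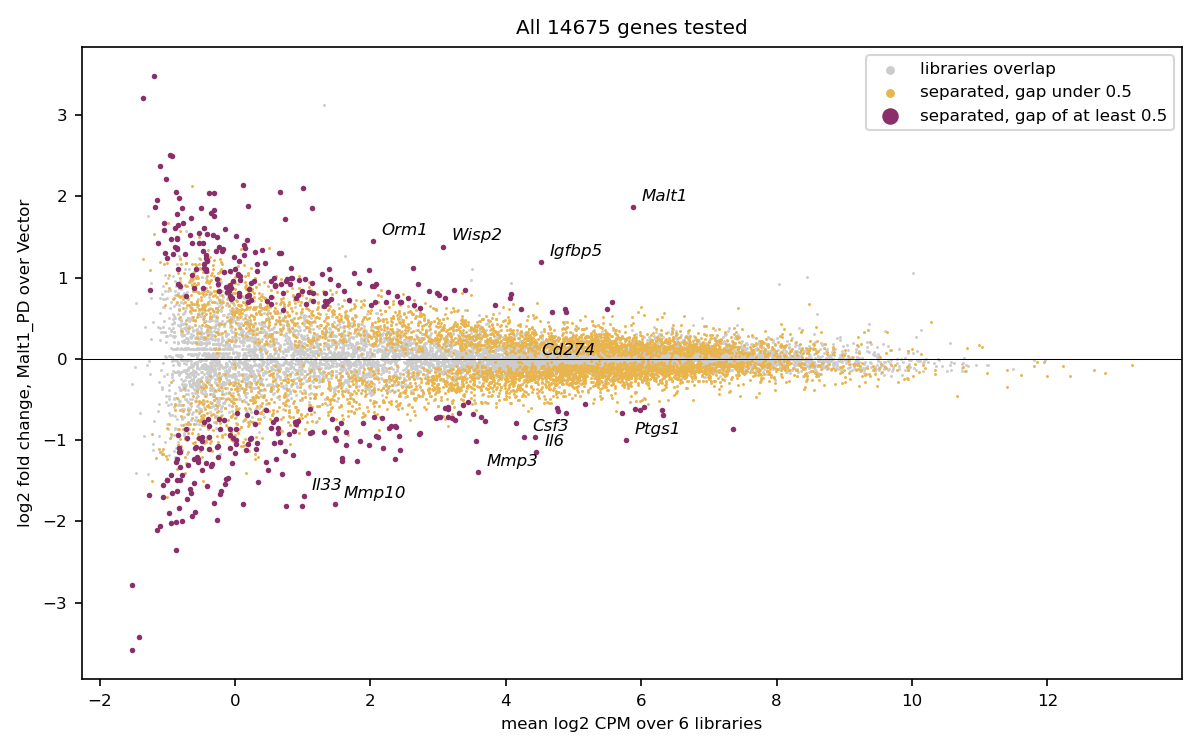
Log2 difference Malt1_PD minus Vector (vertical axis) against mean log2 CPM (horizontal axis) for the 14675 genes tested, coloured by whether the libraries overlap, separate with a gap under 0.5 log2 units, or separate with a wider one. Malt1 lies at 1.87, and most of the genes with the wider gaps are at low mean levels.

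How many genes passed depended on the settings and on the libraries kept. Removing the length trend gave 35 edgeR calls above Vector and 64 below. Dropping Vector replicate 1 gave 47 and 64, and dropping Vector replicate 2 gave 648 and 280. Separations also moved. Without Vector replicate 1, 5975 genes were separated higher and 6053 lower, and 6.30% and 4.16% of genes had a gap of at least 0.5 log2 units. Without Vector replicate 2 the counts were 6154 and 6235 and the shares 6.67% and 3.98%, and with 1 library on a side separation is easier. With the length trend removed, 3188 genes (21.7%) were fully separated higher and 3164 (21.6%) lower, and the same share of 1.23% in each direction had a gap of at least 0.5 log2 units. In that setting 143 of the 190 higher and 155 of the 181 lower genes above still had such a gap on the same side. At the edge of that rule, Epor, the erythropoietin receptor, was just inside (4.50 and 3.03 CPM in Vector, 6.52 and 6.42 CPM in Malt1_PD), and Piwil2, a germline small-RNA binding protein, just outside (57.6 and 63.8 CPM, 89.8 and 90.6 CPM).

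Among genes with a mean log2 CPM of at least 2 and a gene symbol that is not a predicted one, 27 had a gap of at least 0.5 log2 units higher in Malt1_PD and 46 lower. The 15 with the widest gap in each direction were taken for a closer account. Their gaps ran from 0.58 to 1.61 log2 units for the higher and from 0.68 to 1.27 for the lower genes, and in all 30 the gap exceeded the distance between the paired libraries of either group. The higher genes were Malt1, Orm1, Wisp2, Igfbp5, Prdm11, Zfp469, Fam49a, Plekhg4, Fam83a, Irs2, Faxc, Macrod1, Zfp518a, mt-Nd4l and Kctd14. The lower genes were Mmp3, Ptgs1, Ptgs2, Il6, Slc9a2, Csf3, Ifi205, Agap2, Ly6g, Galnt3, Arhgap6, Sncb, Mpv17l, Polr3gl and Fam110c. Malt1 alone of the 30 passed the edgeR threshold with all libraries (adjusted p from 0.0265 to 0.395 for the higher and 0.0629 to 0.349 for the lower genes). With the length trend removed 6 higher and 8 lower genes passed, where 35 and 64 did over all genes tested. The 30 were picked for wide gaps in these same libraries, which makes small p-values among them more likely. Their calls also depended on which libraries were kept.

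**Figure D3:**
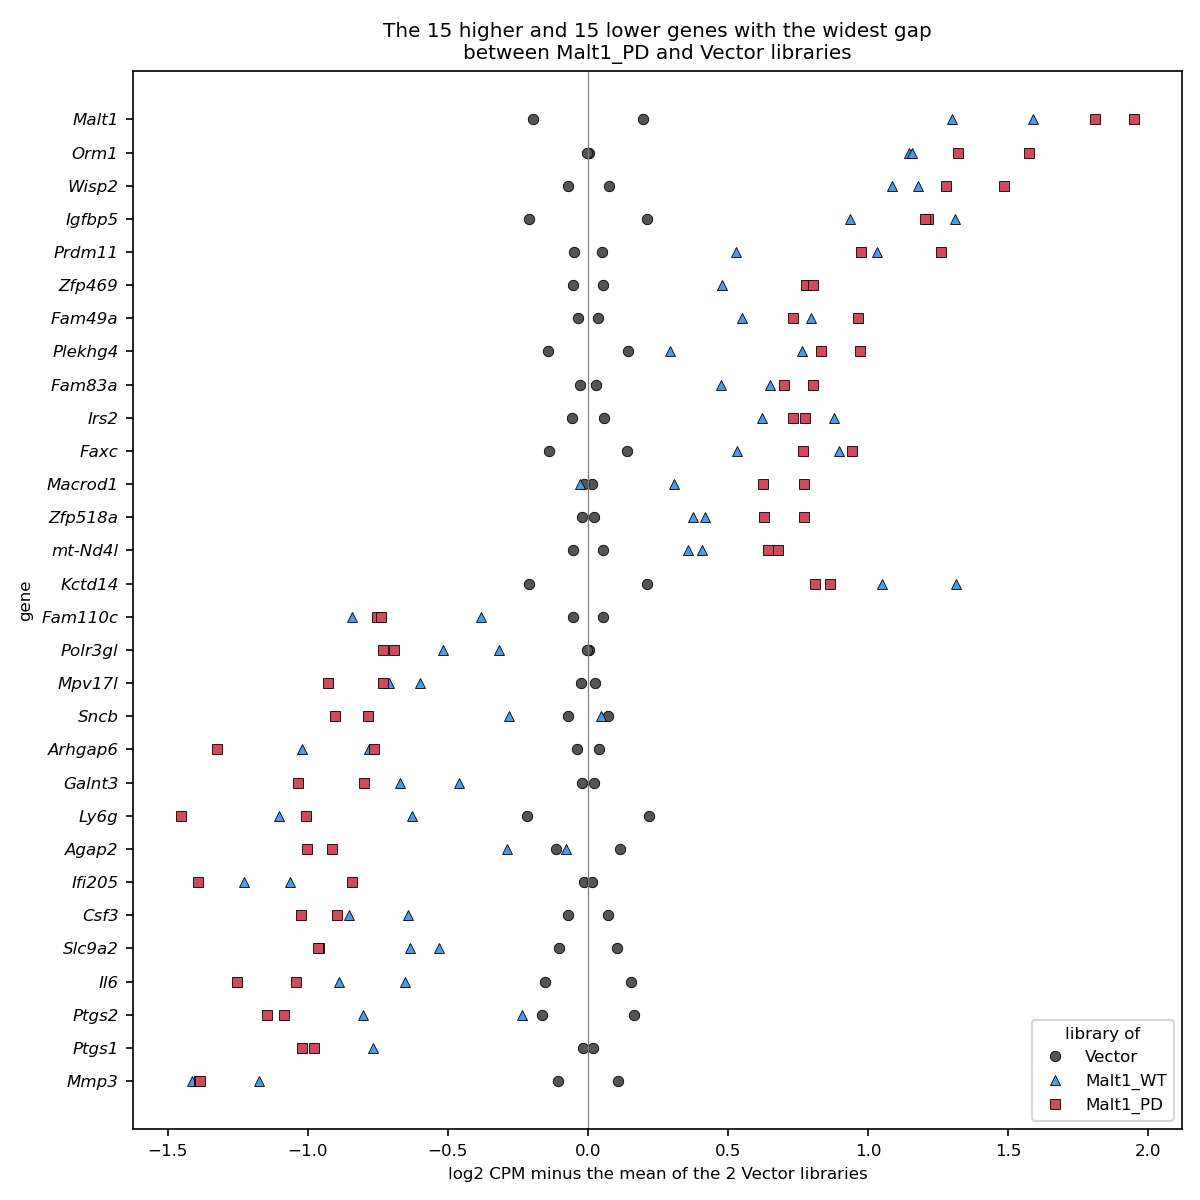
Log2 CPM relative to the Vector mean (horizontal axis) in each library of Vector (circles), Malt1_WT (triangles) and Malt1_PD (squares) for the 15 genes higher and the 15 lower with the widest gap (vertical axis). The 2 Malt1_PD points of each gene lie clear of both Vector points, with gaps from 0.58 to 1.61 log2 units for the higher genes.

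Mmp3, Ptgs1, Ptgs2, Il6 and Csf3, from the protease, prostaglandin and cytokine lists, were among the 15 genes with the widest gaps below Vector. For Il6, Mmp3 and Mmp10 the RefSeq promoter (250 bases before to 50 after the start site, GRCm38.p6) holds the AP-1 motif TGANTCA, and for Il6 and Cxcl2 the NF-κB motif (GGGA, any 2 bases, TTCC). These 4 are shown because, of the genes looked up, only they held one of the motifs searched, and the matched bases are in capitals. Il6 lies at chr5:30012864-30013163, Cxcl2 at chr5:90903649-90903948, Mmp3 at chr9:7445572-7445871 and Mmp10 at chr9:7502092-7502391, all on the plus strand.
Il6: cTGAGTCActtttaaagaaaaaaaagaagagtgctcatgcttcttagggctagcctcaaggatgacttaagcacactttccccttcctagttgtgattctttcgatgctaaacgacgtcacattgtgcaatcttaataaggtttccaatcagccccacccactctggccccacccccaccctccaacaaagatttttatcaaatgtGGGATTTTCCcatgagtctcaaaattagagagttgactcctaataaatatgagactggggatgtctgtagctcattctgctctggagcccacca
Cxcl2: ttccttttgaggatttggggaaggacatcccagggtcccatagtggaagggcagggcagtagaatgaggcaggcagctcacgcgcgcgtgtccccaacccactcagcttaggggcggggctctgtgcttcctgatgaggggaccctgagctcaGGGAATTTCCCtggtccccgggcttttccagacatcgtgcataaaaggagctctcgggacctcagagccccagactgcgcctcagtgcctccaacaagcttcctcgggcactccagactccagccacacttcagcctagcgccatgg
Mmp3: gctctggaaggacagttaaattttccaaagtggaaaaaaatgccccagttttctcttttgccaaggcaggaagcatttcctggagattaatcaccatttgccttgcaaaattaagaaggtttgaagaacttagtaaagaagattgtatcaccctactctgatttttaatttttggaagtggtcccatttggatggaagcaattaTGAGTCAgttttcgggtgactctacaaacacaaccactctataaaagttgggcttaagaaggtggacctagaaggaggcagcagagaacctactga
Mmp10: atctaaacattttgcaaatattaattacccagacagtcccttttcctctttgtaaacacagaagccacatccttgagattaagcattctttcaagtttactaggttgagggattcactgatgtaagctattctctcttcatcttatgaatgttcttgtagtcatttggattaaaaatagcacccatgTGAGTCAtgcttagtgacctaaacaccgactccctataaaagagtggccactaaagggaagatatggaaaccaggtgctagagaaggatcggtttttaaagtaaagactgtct
Of 12 genes looked up (the named members of the cytokine, prostaglandin and protease lists), 9 had a promoter in the RefSeq table, 11 promoters in all. AP-1 matched in 3 of the 9 genes and in 3 of the 11 promoters. Its centre lay 246 bases before the start site in Il6, 43 in Mmp3 and 60 in Mmp10. NF-κB matched in 2 genes and in 2 promoters, centred 39 bases before the start in Il6 and 92 in Cxcl2. The interferon-stimulated response element (GAAA, any 2 bases, GAAA) matched in 0. The promoters of Il33, Ptgs1, Ptgs2, Ptges and Pla2g4a held none of these motifs. Over all 32851 promoters of the table, read on both strands, the shares were 7.81%, 1.47% and 3.44%. Mmp3 and Mmp10 are neighbouring genes, and a difference between these shares and the few promoters above was not tested. A match describes letters in the window, not a bound site.

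Interleukin 6, an inflammatory cytokine and a known target of Regnase-1, is encoded by Il6 (chr5:30013114-30019981). Its mRNA measured 37.7 and 30.5 CPM in Vector and 14.2 and 16.5 CPM in Malt1_PD. Both Malt1_PD libraries were below the lower Vector library. The means of 34.1 ± 5.12 and 15.3 ± 1.57 CPM (SD, n = 2 each) were 2.22-fold apart, and the log2 difference of -1.15 ± 0.15 did not pass the threshold with all libraries (edgeR adjusted p = 0.126). It passed under 6 of 12 alternatives, the length trend removed among them (edgeR adjusted p = 0.00484, range over alternatives 1.86e-11 to 1.00).

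Csf3 encodes G-CSF, the growth factor of neutrophils. Its values were 29.8 and 27.1 CPM in Vector and 14.0 and 15.3 CPM in Malt1_PD, without overlap. The difference was -0.96 ± 0.13 (edgeR adjusted p = 0.126, and 5 of 12 alternatives passed). Il33, an alarmin cytokine, was a low gene at 3.15 and 3.19 CPM in Vector and 0.886 and 1.07 CPM in Malt1_PD. Its libraries were separated by 1.46 log2 units (difference -1.69 ± 0.32, edgeR adjusted p = 0.192). Cxcl2, a neutrophil chemokine, measured 12.8 and 13.3 CPM against 6.14 and 9.51 CPM, also without overlap. Cxcl3, a chemokine of the same family, lay the other way, at 3.55 and 3.59 CPM against 4.62 and 4.28 CPM. Over the list of cytokines, chemokines and colony-stimulating factors, 23 of 31 genes were tested. Of these, 3 were separated higher and 12 lower (all genes 18.4% and 19.7%), with a median log2 difference of -0.36 (all genes -0.00). The lists here and below were chosen with earlier results of these data known. That choice can set their shares and medians apart from those of all genes, and no list was tested as a set. No member of the list passed with all libraries. With the length trend removed, 0 higher and 3 lower members passed (all genes 35 and 64 of 14675).

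Of the listed markers of myeloid cells 4 were tested, of which 0 were separated higher and 3 lower (all genes 18.4% and 19.7%), and none passed with all libraries. The 8 of 10 listed genes with a row summed to 32.1 and 26.7 CPM in Vector and 19.6 and 18.7 CPM in Malt1_PD. The sum came mostly from Cd14, Cd68, Ly6g and Lyz2. Lyz2 overlapped between the groups, at 3.15 and 2.07 CPM in Vector and 2.85 and 2.61 CPM in Malt1_PD (difference 0.06 ± 0.29, edgeR adjusted p = 0.972). The defining genes were near 0, with Csf1r at 5 and 5 counts in Vector and 9 and 2 in Malt1_PD, Adgre1 at 0, 2, 0 and 2, Itgam at 0, 7, 0 and 0, and Fcer1g at 6, 3, 3 and 2. In bulk RNA, fewer cells of a type and less RNA per cell cannot be told apart.

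The cyclooxygenases, which turn arachidonic acid into the precursor of prostaglandins, were separated between the groups on the lower side, and neither passed the threshold with all libraries. Ptgs1 (COX-1, chr2:36230426-36252272) measured 86.0 and 84.0 CPM in Vector and 41.9 and 43.1 CPM in Malt1_PD. The libraries of each group lay close together and the groups were 0.96 log2 units apart. The difference was -0.999 ± 0.10, with an edgeR adjusted p of 0.0629 that came under 0.05 in 6 of 12 alternatives (0.00265 with the length trend removed, range 3.14e-13 to 1.00). Ptgs2 (COX-2), the inducible enzyme, measured 6.87 and 8.63 CPM against 3.48 and 3.62 CPM. It was separated by 0.90 log2 units (difference -1.12 ± 0.24, edgeR adjusted p = 0.260). Pla2g4a, the phospholipase that releases arachidonic acid, was at 31.1 and 37.4 CPM against 24.0 and 22.8 CPM, and Ptges, a prostaglandin E synthase, at 269 and 272 CPM against 233 and 225 CPM. Of 13 listed genes of prostaglandin synthesis and reception 6 were tested, and 0 were separated higher and 5 lower (all genes 18.4% and 19.7%), with a median of -0.39.

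**Figure D4:**
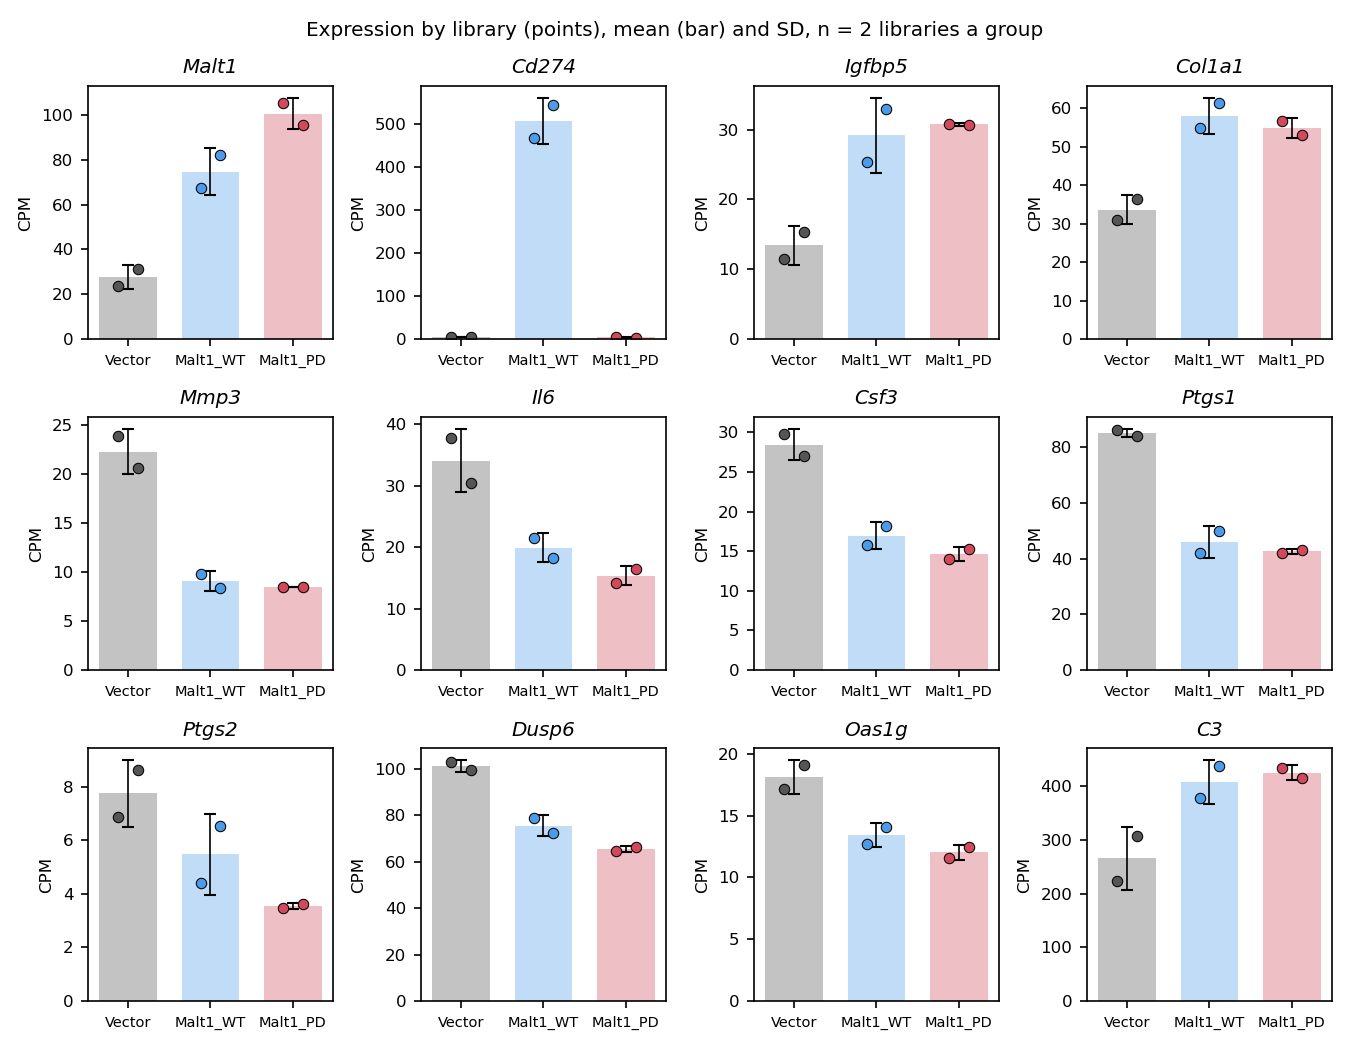
CPM (vertical axis, from 0) in each of the 6 libraries for 12 genes, 1 point per library, a bar at the mean of each group and its SD (n = 2). Malt1 stands higher in the Malt1_PD libraries than in Vector, Cd274 is high only in the Malt1_WT libraries among these 6, and Il6, Csf3, Ptgs1 and Mmp3 are lower in both Malt1_PD libraries than in either Vector library.

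Of 19 listed proteases and inhibitors 16 were tested, 3 were separated higher and 7 lower (all genes 18.4% and 19.7%), and the median was -0.11. None passed with all libraries. Mmp3 (stromelysin-1, chr9:7445822-7455975) measured 23.9 and 20.6 CPM in Vector and 8.48 and 8.50 CPM in Malt1_PD, and had the widest gap of the lower genes at 1.27 log2 units. Its difference was -1.39 ± 0.15 (edgeR adjusted p = 0.0629), and it passed under 6 of 12 alternatives (range 7.62e-12 to 1.00). Mmp10 (stromelysin-2), its neighbour on chromosome 9, was at 5.12 and 6.11 CPM against 1.83 and 1.43 CPM, a difference of -1.78 ± 0.27 (edgeR adjusted p = 0.154). Plat, tissue plasminogen activator, stood at 37.7 and 38.4 CPM against 24.9 and 22.9 CPM. None of these 3 overlapped between the groups. Mmp2 (gelatinase A) lay the other way, at 75.1 and 83.5 CPM in Vector and 114 and 115 CPM in Malt1_PD (0.53 ± 0.09, edgeR adjusted p = 0.155). With the length trend removed, 1 higher and 3 lower passed (all genes 35 and 64 of 14675).

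Of 24 listed collagen, matrix and myofibroblast genes 19 were tested, and 10 were separated higher and 2 lower (all genes 18.4% and 19.7%), with a median of 0.14 (all genes -0.00). None passed with all libraries. Col1a1, the main chain of type I collagen (chr11:94936224-94953042), measured 31.0 and 36.4 CPM in Vector and 56.8 and 53.01 CPM in Malt1_PD. Acta2, smooth muscle actin of myofibroblasts, measured 35.2 and 32.2 CPM against 51.1 and 52.2 CPM. Both were separated by over 0.5 log2 units, with differences of 0.70 ± 0.11 and 0.62 ± 0.11 (edgeR adjusted p of 0.155 and 0.166). Tgfbi, a matrix protein induced by TGF-β, was at 133 and 135 CPM against 176 and 173 CPM. Dcn, the proteoglycan decorin, was a separated gene on the lower side (9.85 and 12.5 CPM against 6.90 and 6.66 CPM). With the length trend removed 3 higher and 0 lower genes passed (all genes 35 and 64 of 14675). The list median was 0.09 without Vector replicate 1, with 8 of the 19 members below 0. It was 0.40 without Vector replicate 2, with 3 below 0.

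Igfbp5, Wisp2, Irs2 and Orm1 were among the 15 genes with the widest gaps above Vector. Igfbp5, a binding protein of insulin-like growth factors (chr1:72857932-72874884), measured 11.5 and 15.4 CPM in Vector and 30.9 and 30.6 CPM in Malt1_PD. The groups were 0.98 log2 units apart, with a difference of 1.19 ± 0.17 (edgeR adjusted p = 0.138, passed under 6 of 12 alternatives, range 1.51e-12 to 1.00). Wisp2, a CCN family matricellular protein, was at 4.90 and 4.43 CPM against 13.0 and 11.3 CPM (1.38 ± 0.16, edgeR adjusted p = 0.106). Irs2, the insulin receptor substrate, was at 5.74 and 6.22 CPM against 9.93 and 10.2 CPM. Each of these genes had both Malt1_PD libraries well above both Vector libraries.

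Orm1 (orosomucoid, an acute-phase plasma protein) measured 2.20 and 2.18 CPM in Vector and 6.52 and 5.47 CPM in Malt1_PD, a difference of 1.45 ± 0.21 (edgeR adjusted p = 0.142). Hp (haptoglobin) measured 152 and 122 CPM against 212 and 214 CPM, and C3 (complement component 3) 224 and 308 CPM against 435 and 415 CPM. All 3 were separated on the higher side. Their list held both directions. Of its 17 acute-phase and innate defence genes 14 were tested, 6 separated higher and 5 lower (all genes 18.4% and 19.7%), with a median of -0.09. Cd14, the lipopolysaccharide co-receptor, was a lower one at 11.6 and 10.6 CPM against 7.09 and 8.20 CPM. Orm1, Hp and C3 passed with the length trend removed (all genes 35 higher and 64 lower of 14675).

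Of 17 listed feedback and ETS target genes of the kinase ERK 16 were tested, 1 was separated higher and 11 lower (all genes 18.4% and 19.7%), and the median was -0.20. None passed with all libraries. Dusp6, the phosphatase that inactivates ERK (chr10:99263231-99267489), measured 103 and 99.3 CPM in Vector and 64.5 and 66.3 CPM in Malt1_PD. Its libraries were 0.58 log2 units apart and the difference was -0.63 ± 0.09 (edgeR adjusted p = 0.126, passed under 5 of 12 alternatives, range 3.25e-05 to 1.00). Spry2, a Sprouty inhibitor of receptor tyrosine kinase signalling, was at 36.4 and 33.2 CPM against 21.3 and 23.2 CPM. Spred3, a related inhibitor, was at 25.1 and 28.5 CPM against 15.8 and 18.6 CPM. Neither overlapped. With the length trend removed 0 higher and 3 lower passed (all genes 35 and 64 of 14675).

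Immediate early and AP-1 genes showed 4 separated higher and 13 lower of 23 tested (all genes 18.4% and 19.7%), with a median of -0.12. Atf3, a stress-induced factor, was at 24.5 and 28.9 CPM in Vector and 18.8 and 19.4 CPM in Malt1_PD, and Zfp36 (tristetraprolin, which destabilises inflammatory mRNAs) at 22.5 and 19.3 CPM against 13.8 and 15.7 CPM. Klf4, a zinc finger factor, was on the higher side, at 25.7 and 27.2 CPM against 35.4 and 34.8 CPM. None of the 3 passed with all libraries (edgeR adjusted p of 0.365, 0.381 and 0.285).

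Of 34 tested genes induced by type I interferon, 19 were separated lower and 4 higher, against 19.7% and 18.4% of all genes, and 26 of the 34 had a log2 difference below 0. The median was -0.19. Oas1g, which belongs to the enzymes that make the activator of RNase L, was at 17.2 and 19.1 CPM in Vector and 11.6 and 12.5 CPM in Malt1_PD. Oas3, of the same family, was at 65.5 and 71.7 CPM against 49.4 and 50.5 CPM. Both were separated between the groups, and neither passed with all libraries (edgeR adjusted p of 0.279 for each). The related Oas genes can share reads, which makes their single values less certain.

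In the interferon-γ response list 2 were separated higher and 6 lower of 21 tested (all genes 18.4% and 19.7%), with a median of -0.06. The receptor chains lay in opposite directions. Ifngr1 was at 25.0 and 20.5 CPM in Vector and 30.6 and 27.6 CPM in Malt1_PD, and Ifngr2 at 45.1 and 41.2 CPM against 36.6 and 34.5 CPM. Socs3, an inhibitor of cytokine signalling, was at 280 and 278 CPM against 224 and 229 CPM. Cxcl10, a chemokine that draws T cells, was at 20.9 and 17.3 CPM against 15.1 and 13.4 CPM.

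Genes of MHC class I antigen presentation were separated higher in 2 and lower in 8 of 18 tested (all genes 18.4% and 19.7%), with a median of -0.11. H2-D1, a classical class I heavy chain, was at 723 and 605 CPM in Vector and 576 and 576 CPM in Malt1_PD (-0.21 ± 0.09, edgeR adjusted p = 0.602). Erap1, the peptidase that trims peptides in the endoplasmic reticulum, was on the higher side at 54.0 and 57.9 CPM against 70.2 and 70.2 CPM. The median came to -0.01 without Vector replicate 1 and -0.17 without Vector replicate 2. Of 12 tested ligands of inhibitory immune receptors, 2 were separated higher and 4 lower, with a median of -0.03. Cd47, the signal that restrains phagocytes, was at 202 and 186 CPM against 157 and 154 CPM, and Pvr, which the receptor TIGIT binds, at 127 and 129 CPM against 105 and 108 CPM.

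**Figure D5:**
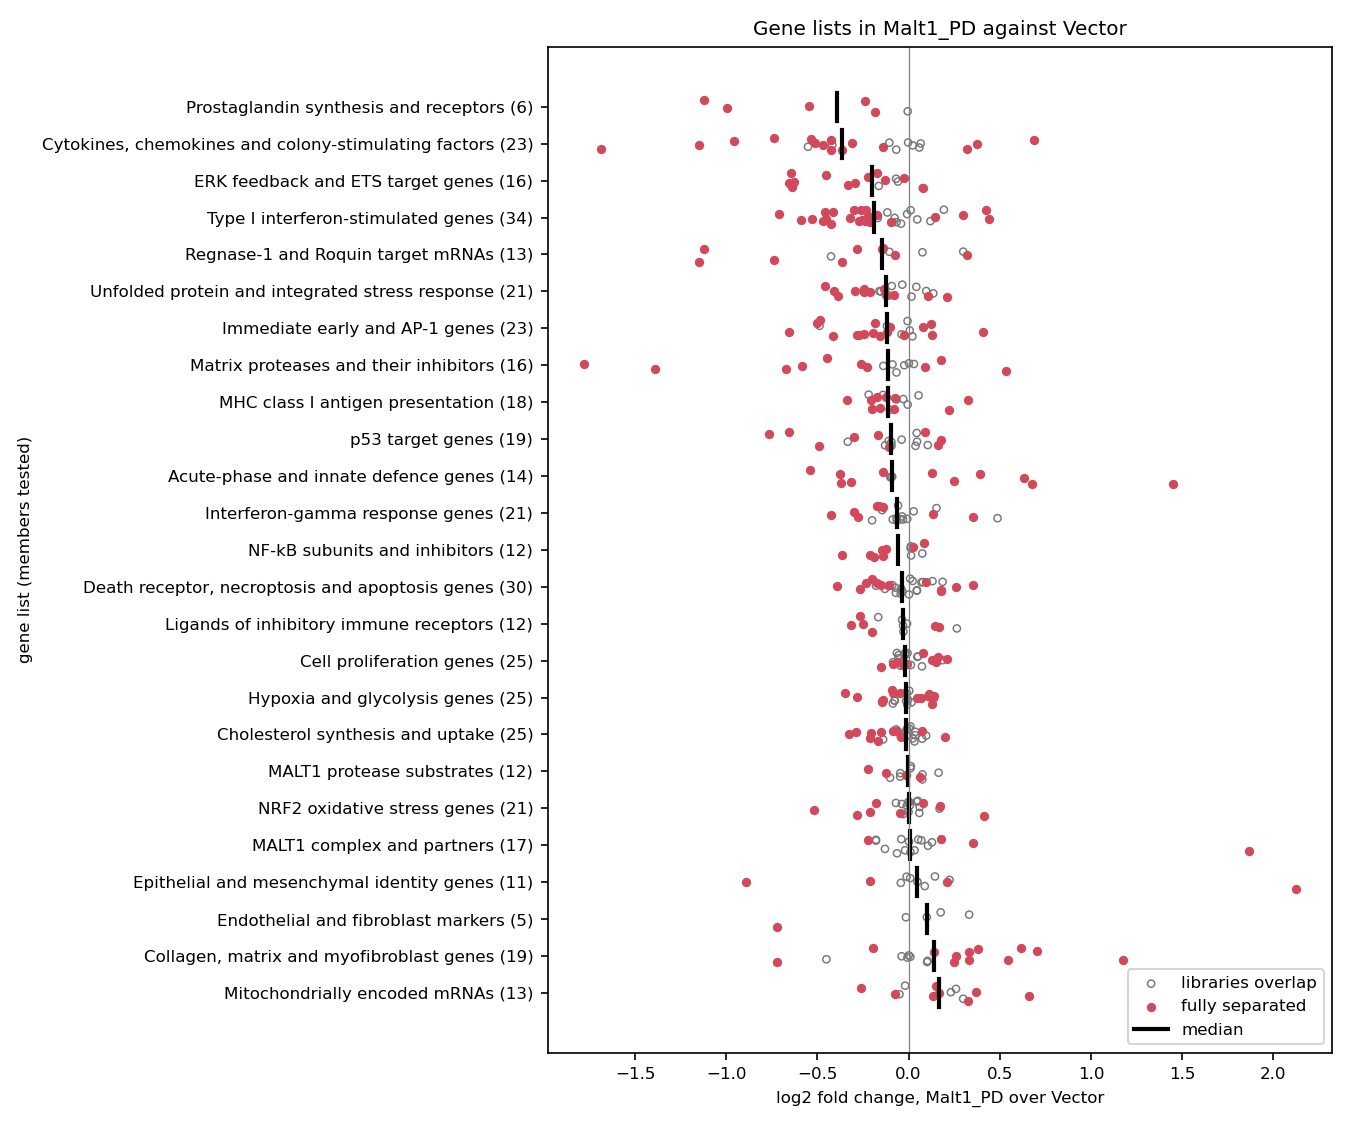
Log2 difference Malt1_PD minus Vector (horizontal axis) of each tested member of the gene lists with at least 5 tested members (vertical axis), with filled points for fully separated genes, open points for overlapping ones and a bar at the list median. The medians of the prostaglandin (-0.39) and cytokine (-0.36) lists lie farthest below 0, and those of the mitochondrial (0.17) and matrix (0.14) lists above it.

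In the list of MALT1 and its partners, 2 of the 16 tested members other than Malt1 were separated higher and 1 lower (all genes 18.4% and 19.7%), and the median over all 17 was 0.01. Bcl10, the adaptor that binds MALT1, was the lower one, at 83.1 and 74.8 CPM in Vector and 63.8 and 71.5 CPM in Malt1_PD. Map3k7, the kinase TAK1, was a higher one at 68.6 and 79.2 CPM against 84.4 and 83.0 CPM. Among 12 genes whose proteins MALT1 cleaves, 1 was separated higher and 3 lower, with a median of -0.00 and differences from -0.22 to 0.16. RNA counts do not measure cleavage of the proteins.

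NF-κB subunits and inhibitors were separated higher in 2 and lower in 6 of 12 tested (all genes 18.4% and 19.7%), with a median of -0.06. Nfkb2, which encodes p100, was at 182 and 186 CPM in Vector and 162 and 160 CPM in Malt1_PD. Rel was at 25.1 and 32.0 CPM against 21.6 and 22.6 CPM, and Nfkbiz, an atypical IκB protein needed for Il6 induction, at 144 and 142 CPM against 132 and 127 CPM. All 3 were on the lower side without overlap, and their edgeR adjusted p lay between 0.535 and 0.644. Of the mRNAs that Regnase-1 or the Roquins are known to degrade, 13 of 17 were tested, 1 was separated higher and 8 lower, and the median was -0.15. Il6, Ptgs2, Cxcl2 and Cxcl3, described above, belong to this list too.

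Of 21 tested genes that answer unfolded proteins or the integrated stress pathway 2 were separated higher and 10 lower (all genes 18.4% and 19.7%), with a median of -0.12, and none passed. Hspa5, the chaperone BiP, was at 1142 and 1033 CPM in Vector and 916 and 920 CPM in Malt1_PD. Chac1, a glutathione-degrading enzyme induced by ATF4, was at 15.3 and 14.6 CPM against 11.3 and 11.5 CPM. Gdf15, a stress cytokine from the p53 target list, was at 18.9 and 17.3 CPM against 11.6 and 9.69 CPM, separated by 0.58 log2 units (-0.77 ± 0.14, edgeR adjusted p = 0.177). For p53 targets as a whole the counts were 3 higher and 6 lower of 19, and for NRF2 targets 3 and 5 of 21, with 11 NRF2 targets below 0 and 10 above.

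Proliferation genes were separated higher in 5 and lower in 5 of 25 tested (all genes 18.4% and 19.7%), with a median of -0.02, and no member lay beyond -0.15 or 0.21. Hypoxia and glycolysis genes gave 7 and 8 of 25 (median -0.01), cholesterol synthesis 2 and 9 of 25 (median -0.01), and death receptor and apoptosis genes 5 and 7 of 30 (median -0.04). Ripk3, the kinase of necroptosis, was on the higher side at 43.3 and 38.6 CPM against 52.4 and 52.4 CPM, and its substrate Mlkl on the lower at 114 and 110 CPM against 89.1 and 97.5 CPM. Mitochondrially encoded mRNAs were separated higher in 6 and lower in 2 of 13. Their median, 0.17, was the highest of the lists with at least 5 tested members, and none passed with all libraries. That median was 0.23 without Vector replicate 1 and 0.06 without Vector replicate 2. With the length trend removed it was 0.12, below the collagen and matrix list at 0.14. mt-Nd4l, a subunit of complex I, led the list at 11.7 and 10.8 CPM against 17.5 and 17.9 CPM. It overlaps mt-Nd4, so its reads are less certain. Its gap fell from 0.58 to 0.20 log2 units with the length trend removed.

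Malt1_PD cells were also set against Malt1_WT cells, with which they share the Malt1_PD libraries used above. In that contrast edgeR called 0 genes higher (0%, with 159 or 1.08% at an unadjusted p under 0.05, and 0 by DESeq2) and 1 lower, Cd274 (0.00681%, with 123 or 0.838% at an unadjusted p under 0.05). Malt1 itself differed from Malt1_WT by 0.43 ± 0.14 (edgeR adjusted p = 1.00). Of the 30 genes with the widest gaps from Vector, 0 passed against Malt1_WT and 8 had an unadjusted p under 0.05. The 30 were picked on the same Malt1_PD libraries, which makes small p-values more likely here. The p-values of single genes below carry that choice too. Malt1_WT values for the main genes were 21.6 and 18.3 CPM for Il6, 41.9 and 49.96 CPM for Ptgs1, 9.82 and 8.33 CPM for Mmp3 and 25.4 and 33.0 CPM for Igfbp5. For all 4 genes these lay on the Malt1_PD side of both Vector libraries. Agap2, a GTPase-activating protein, and Sncb, β-synuclein, were different in this respect. Agap2 measured 5.07 and 5.94 CPM in Vector, 5.20 and 4.49 CPM with the wild type and 2.91 and 2.73 CPM in Malt1_PD. Sncb measured 6.19 and 5.60, 4.84 and 6.08, and 3.42 and 3.15 CPM. In both genes a Malt1_WT library lay within the Vector range and both Malt1_PD libraries lay below all others, with Malt1_PD minus Malt1_WT at -0.77 and -0.74 (edgeR unadjusted p of 0.00748 and 0.00814, adjusted p = 1.00 for each). A p above the threshold does not show that the forms act alike.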

How the data were processed

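RNA sequencing counts of 6 libraries were used. Per the labels' protocols, strand-specific libraries came from total RNA and were read as pairs. The submitters' processing notes name Trim Galore 0.6.0, STAR 2.7.3a, featureCounts 1.6.3 and the build GRCm38.p6, with the strand setting and annotation version not given in the sources used here. The authors deposited whole-number counts per gene, not normalised. They also deposited 6 per-sample columns of log2 values, which were not used here. Gene coordinates are from GENCODE M21 (GRCm38), and promoters from RefSeq (GRCm38.p6).

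Counts were filtered with filterByExpr and fitted by quasi-likelihood with edgeR 4.0.16 under R 4.3.3 (glmQLFit, glmQLFTest, TMM factors, a mean per group, 6 libraries in 1 fit, Benjamini-Hochberg adjustment over 14675 genes, threshold 0.05). Malt1_WT libraries lend spread. Levels are TMM-scaled CPM, and separation and gaps use log2 CPM with a prior count of 2. The length trend was removed per library by a lowess curve (span 0.3) passed as an offset. The scripts were tested on simulated data. Named genes were Malt1, Cd274, called genes, the 15 widest gaps in each direction (mean log2 CPM at least 2, no predicted symbol) and up to 4 members per list, with other genes chosen after their values were seen. Members and the 28 lists were chosen with earlier results of these data known. Alternatives were DESeq2 1.42.0 (size factors, Wald test), no filter, the 4 libraries alone, the replicate number as a block, length removal, a log2 change of at least 1 and leaving out each library. Values of the lists without single libraries were added after seeing the data. List genes with no row are not analysed here, and 1 named list member is not reported here.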

Additional observations from a re-analysis of the deposited data

How the results depend on the processing

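For Malt1_PD against Vector, the count of called genes (1 higher, 0 lower) stayed at 1 and 0 with DESeq2 size factors, with the 4 libraries alone and with a log2 change of at least 1. It was 94 and 94 with no low-count filter, 20 and 23 with DESeq2's Wald test, and 35 and 64 with the length trend removed. Leaving out 1 library at a time gave 0 to 648 higher and 0 to 280 lower. With the replicate number as a block it was 3 and 6, and Malt1 was called in that fit too. The labels tie same-numbered libraries by their number only. Deviations (replicate 2 minus replicate 1 in well-expressed genes) correlated at 0.68 for Vector with Malt1_WT. They correlated at -0.01 for Vector with Malt1_PD and 0.03 for Malt1_WT with Malt1_PD. Same-numbered Vector and Malt1_WT libraries thus shifted together, and Malt1_PD did not share that shift, whose cause was not tested. Malt1's difference ran from 1.68 to 2.08 over its 12 alternatives, its lowest and highest being without Vector replicate 1 and 2. Cd274 turned from -0.03 to 0.183 without Malt1_PD replicate 2 and was -0.270 without replicate 1. Fully separated genes numbered 4398 higher and 3982 lower with no filter, and 2864 to 6154 and 2965 to 6235 with 1 library left out. The share of genes tested with a gap of at least 0.5 log2 units was 2.75% and 2.99% with no filter, and 1.43% to 6.67% and 1.45% to 4.16% with 1 library left out, where 1 library a side separates more easily. Against Malt1_WT, 11 genes were called higher with no filter. The 119 named genes other than Malt1 and Cd274 had no call with all libraries, so none could lose one. Over their 1424 values 168 newly passed and 11 changed sign. These were Cyld (-0.00963 with the length trend removed) and, with 1 library left out, Pax5 (-0.252 to 0.358), Pdgfrb (-0.0179 to 0.405), Lck (-0.128 to 0.0149), Lyz2 (-0.202 to 0.395), Pecam1 (-0.0726 to 0.258) and Cdh5 (-0.292 to 0.784). The cause of these shifts was not tested. Depth limits low genes, with 3 counts at 0.150 to 0.214 CPM.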

Other observations

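Further genes with a gap of at least 0.5 log2 units between Vector and Malt1_PD were chosen for description after their values were seen. Ligands of the epidermal growth factor receptor were among them. Areg, amphiregulin, measured 73.4 and 64.1 CPM in Vector and 45.2 and 41.2 CPM in Malt1_PD, and Hbegf, heparin-binding EGF, measured 35.3 and 32.4 CPM against 22.4 and 22.3 CPM. Fabp4, a fatty acid carrier, was at 264 and 201 CPM against 130 and 126 CPM, and Upp1, uridine phosphorylase, at 114 and 101 CPM against 63.6 and 69.6 CPM. Itga7, an integrin chain that binds laminin, was at 85.6 and 83.7 CPM against 55.0 and 57.8 CPM. On the higher side, Enpp2 (autotaxin, which makes lysophosphatidic acid) was at 23.5 and 24.3 CPM against 35.4 and 35.9 CPM, and Slc30a1, a zinc exporter, at 13.7 and 14.9 CPM against 22.1 and 21.8 CPM. None of these 7 genes passed with all libraries (edgeR adjusted p from 0.138 to 0.219). With the length trend removed all 7 passed (edgeR adjusted p from 0.00657 for Upp1 to 0.0425 for Slc30a1). Since the 7 were picked, this is not the share of such genes that passed. Others with such a gap did not pass in that setting, among them Neil1 and Plek on the lower side and Aspa on the higher (edgeR adjusted p of 0.227, 0.163 and 0.159).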
